A study of Mus musculus with 1 sample.

Results

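The genes described here were the heat shock proteins and the DnaJ cochaperones of cultured mouse glia. They were chosen by symbol alone, as all genes named Hspa, Hspb, Hspd, Hspe or Hsph with a number, Hsp90, or Dnaja, Dnajb or Dnajc with a number. The rule found 72 genes among the 23282 listed, of which 27 had Hsp symbols and 45 had Dnaj symbols. The study examined the kinase SGK1 in glia of the ventral midbrain (VM), the region that degenerates in Parkinson disease (PD), and its RNA was taken from primary mixed glial cultures of outbred ICR (CD-1) mice at postnatal day 5. A single RNA-seq library, labelled as control, was used, and the study describes the control of its inhibitor experiment as treated with the solvent DMSO. Cultures given the SGK1 inhibitor were not analysed here. The cultures were grown in serum, subcultured near confluence and not sorted, so every value is a mixture over the cell types present. In such bulk RNA, fewer cells of a type and less RNA per cell cannot be told apart. With 1 library (n = 1) there was no replicate, no group comparison, no error between cultures and no test, and each ratio below describes this library only.

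Chaperones keep proteins folded. HSP70 proteins bind unfolded stretches of a client and release them in a cycle driven by ATP, DnaJ proteins (HSP40 or J proteins) bring clients and switch on the ATPase of HSP70 through their J domain, and nucleotide exchange factors end the cycle. HSP90 acts later on kinases and steroid receptors, small heat shock proteins hold unfolded proteins without ATP, and the chaperonin HSP60 with its lid HSP10 folds proteins inside mitochondria. Some members are made at all times and are termed constitutive or cognate. Others are induced when the transcription factor HSF1 binds heat shock elements, inverted repeats of GAA and TTC in their promoters, and a separate set in the endoplasmic reticulum (ER) is induced by the unfolded protein response through ER stress elements. In PD, chaperones are studied because HSP70 and its J proteins act on α-synuclein aggregates.

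Promoter sequences are shown for members that hold a heat shock element or an ER stress element. RefSeq promoter windows on GRCm38.p6, from 250 bases before to 50 after the start, were matched for 58 of the 72 genes. Windows were not matched for 14 genes, among them Hspa8, Hsp90ab1 and Hsp90aa1. A heat shock element of 3 units was searched as GAANNTTCNNGAA on both strands. It was found in 4 of the 58 genes (6.90%), which were Dnajb6, Hspd1, Hspe1 and Hsph1, against 0.662% of all 27025 genes in the promoter table. By list, this was 1 of the 5 core inducible genes with a window, Hsph1, and 1 of 6 constitutive genes, Dnajb6. Hspd1 and Hspe1 are on the list of further inducible genes, of which Dnaja1, Dnajb4 and Hspb8 had a window without the element. The Hspd1 and Hspe1 matches lie on the same stretch, which is counted for both genes. The ER stress element, CCAAT and CCACG with 9 free bases between them, was searched on both strands. It was found in Hspa5, Hsp90b1 and Dnajc3, 3 of 58 (5.17%), against 0.137% of all genes. These 3 were all among the 6 ER stress-induced genes with a promoter window. The shorter element of 2 units (GAANNTTC or TTCNNGAA), which each element of 3 units also holds, was in 16 of 58 genes (27.6%) and in 17.0% of all genes. It was in 4 of the 5 core inducible genes with a window and in 1 of 6 constitutive genes, and the 4 include Hspa1a and Hspa1b, whose upstream sequences are near-identical. TATAAA, on the given strand only, was in 4 of 58 genes (6.90%) and in 9.77% of all genes. A match describes the letters only.

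The stretches that carry these elements are printed 5′ to 3′ along the gene, with the matched element in capitals. Hspa1a (chr17:34972157-34972306, minus strand) and Hspa1b (chr17:34959239-34959388, minus strand) are shown because they encode the inducible HSP70, and Hspb1 (chr5:135887769-135887918, plus strand) because it had the highest level of the genes with Hspb symbols. Each holds elements of 2 units within the 150 bases before its start.
Hspa1a: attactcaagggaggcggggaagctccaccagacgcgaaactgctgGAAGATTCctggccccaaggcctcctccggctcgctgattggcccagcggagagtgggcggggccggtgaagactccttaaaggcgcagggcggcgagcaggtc
Hspa1b: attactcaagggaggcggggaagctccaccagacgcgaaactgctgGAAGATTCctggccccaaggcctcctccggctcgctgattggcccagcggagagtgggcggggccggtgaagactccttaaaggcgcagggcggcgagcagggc
Hspb1: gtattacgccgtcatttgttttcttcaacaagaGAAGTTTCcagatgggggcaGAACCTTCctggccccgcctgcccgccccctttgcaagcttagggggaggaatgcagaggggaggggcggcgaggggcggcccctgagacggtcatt
Over the 250 bases before their starts, Hspa1a and Hspa1b differed at 3 positions. The next stretches hold elements of 3 units, 30 bases each. The stretch of Hspe1 (chr1:55088054-55088083, plus strand) lies between the RefSeq starts of Hspe1 and Hspd1, which are on opposite strands. In the GENCODE annotation Hspd1 starts farther out, and the stretch falls inside an annotated Hspd1 exon. Its matches were also found in the Hspd1 window on the opposite strand. That of Dnajb6 (chr5:29735844-29735873, plus strand) ends before the RefSeq start shown, and that of Hsph1 (chr5:149636287-149636316, minus strand) lies after it. Both fall inside GENCODE exons of their own genes, as does the stretch of Hspa5 printed further on.
Hspe1: gtccgTTCTAGAACCTTCCGGAAggccccg
Dnajb6: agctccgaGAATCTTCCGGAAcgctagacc
Hsph1: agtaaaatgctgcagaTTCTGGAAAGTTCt
The ER stress elements are those of Hspa5 (chr2:34772020-34772049, plus strand), Hsp90b1 (chr10:86705511-86705670, minus strand), with 1 element in each orientation, and Dnajc3 (chr14:118937792-118937891, plus strand).
Hspa5: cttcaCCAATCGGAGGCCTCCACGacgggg
Hsp90b1: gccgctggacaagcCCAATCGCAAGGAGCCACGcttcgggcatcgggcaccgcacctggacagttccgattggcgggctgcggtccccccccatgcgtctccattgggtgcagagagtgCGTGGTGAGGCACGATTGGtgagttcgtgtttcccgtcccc
Dnajc3: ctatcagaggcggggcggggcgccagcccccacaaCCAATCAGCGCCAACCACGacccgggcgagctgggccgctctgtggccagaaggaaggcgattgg

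The members were mostly well expressed, and a few of them held most of the signal. Values are normalised read counts as deposited, and a gene at 10 or more was counted as detected. Of the 72 genes, 64 were detected (88.9%), against 15648 of 23282 genes in the library (67.2%). A value of 1000 or more was reached by 41 genes, 19 lay from 100 to below 1000, 4 between 10 and 99, 4 between 1 and 9, and 4 were listed at 0. The median over all 72 was 1313, and over all genes in the library it was 119. Among detected genes only, a filter that high genes pass by definition, these medians were 1729 and 469. Together the members held 1.47% of the sum of 27569507. Hspa8 alone held 29.1% of the members' values, the 5 highest held 65.3% and the 10 highest 77.3%. Those 5, Hspa8, Hsp90ab1, Hsp90b1, Hsp90aa1 and Hspa5, also lay above 99% or more of detected genes by value.

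**Figure D1:**
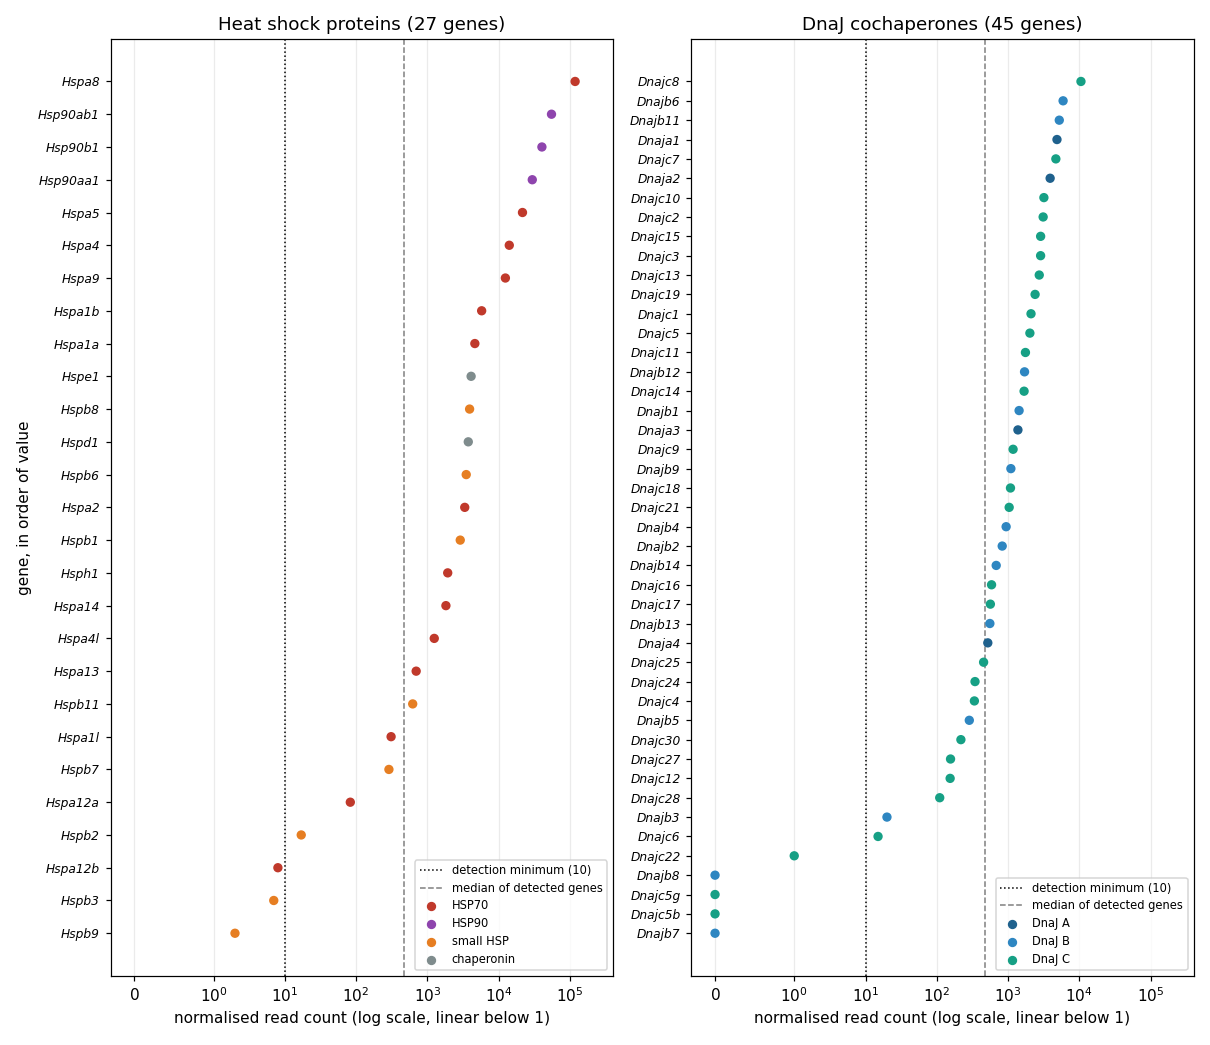
Normalised read counts of the 27 heat shock proteins (left) and 45 DnaJ cochaperones (right) in the 1 control library, one point per gene in order of value, coloured by family, on a log axis that is linear below 1. The dotted line is the detection minimum of 10 and the dashed line the median of detected genes, 469; the highest heat shock protein, Hspa8, is at 118379 and the highest DnaJ gene, Dnajc8, at 10545.

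Because longer transcripts give more reads, genes are compared below by a length-scaled level, which is the value per 1000000 of the sum, divided by the kilobases of annotated exon. The median level of the 15454 detected genes with a length was 3.71. Of the 64 detected members, 52 (81.3%) were above it, against 49.4% of all detected genes, where genes without a length count as not above. For the 27 Hsp genes the median level was 51.5 and for the 45 Dnaj genes 7.87, each over all members.

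The cognate HSP70 dominated its family. Hspa8, which encodes HSC70, the constitutive cytosolic chaperone that also strips clathrin from vesicles, had a value of 118379 (rank 12 of all genes) and a level of 998. It made up 62.5% of the summed level of the 14 genes grouped here as HSP70, including the HSP110 genes. Hspa5, which encodes the ER chaperone BiP, followed at 21621 (level 185, 11.6%), and Hspa9, which encodes the mitochondrial mortalin, at 12442 (level 105, 6.56%). By level, Hspa8 was 5.38 times Hspa5 and 9.53 times Hspa9. The annotated exons of Hspa8, joined over its transcripts, overlap small nucleolar RNAs of the Snord14 group, of which Snord14c and Snord14d were listed at 0. The joined exons span 4.30 kb, while the longest transcript has 3158 bases. Per kilobase of that transcript, the level of Hspa8 was 1360.

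The inducible HSP70 genes were well expressed in this control culture. Hspa1b had a value of 5781 (level 74.8) and Hspa1a 4641 (level 56.7), above 95.6% and 94.1% of detected genes by level. Their coding sequences are near-identical, with 99.2% identity over 2201 bases, so reads between these 2 genes can be split or left out by the counting, and the ratio of their values, 1.25, carries that limit. Their summed level, which reads left out would lower, was 132, and Hspa8 was 7.59 times as high. Of the exon bases of Hspa1a, 19.0% overlap Gm20481 on the opposite strand. The third gene of this cluster on chromosome 17, the testis-enriched Hspa1l, was at 310 (level 4.55), and 71.9% of its exon bases overlap an antisense gene, Gm10501. Another testis-enriched gene, Hspa2, was far higher, at 3348 (level 45.9).

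The HSP110 genes, which act as nucleotide exchange factors for HSP70, differed widely. Hspa4 was at 14111 (level 92.6), Hsph1, the heat-inducible HSP105, at 1931 (level 9.64), and Hspa4l at 1250 (level 3.84). The level of Hspa4 was 9.61 times that of Hsph1. Hspa14, which acts at the ribosome, was at 1822 (level 16.3) and the ER-associated Hspa13 at 697 (level 3.70). The distant relatives were lowest, with Hspa12a at 83 (level 0.328) and Hspa12b at 8, under the detection minimum.

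All 3 HSP90 genes were among the highest of the library. Hsp90ab1, which encodes the constitutive cytosolic form, was at 55206 (level 668), Hsp90b1, which encodes the ER form GRP94, at 40492 (level 364), and Hsp90aa1, which encodes the inducible cytosolic form, at 29664 (level 274). The cytosolic pair was closer together than the HSP70 pair, with Hsp90ab1 2.44 times Hsp90aa1 by level. Summed levels were 1597 for the 14 HSP70 genes and 1306 for the 3 HSP90 genes.

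**Figure D2:**
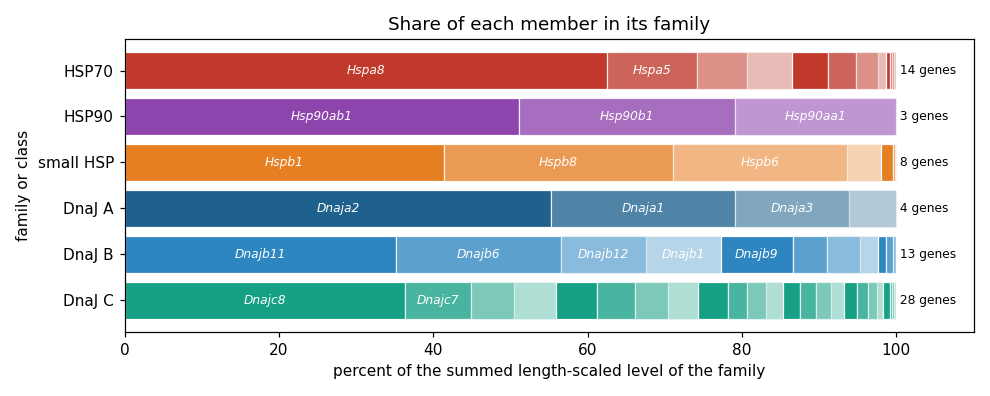
Share of each member in the summed length-scaled level of its family, in percent, for 6 families or classes; each bar is 1 family and each segment 1 gene, named where it holds more than 8%. Hspa8 fills 62.5% of the HSP70 bar, while Hsp90ab1, Hsp90b1 and Hsp90aa1 hold 51.1%, 27.9% and 21.0% of the HSP90 bar.

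The constitutive and inducible lists as wholes were not clearly separated. The constitutive list held Hspa8, Hsp90ab1, Hspa4, Hspa14, Dnaja2, Dnajb6, Dnajc7 and Dnajc8, and the core inducible list Hspa1a, Hspa1b, Hsp90aa1, Hsph1, Dnajb1 and Hspb1. Induction was not measured here, and both lists were chosen with earlier results of these data known. The median level was 70.0 for the 8 constitutive genes and 65.8 for the 6 inducible genes, a ratio of 1.06. Leaving out each gene in turn moved this ratio between 0.722 and 1.41, so its direction rested on single genes (it fell below 1 without Hspa8, Hsp90ab1, Hspa4, Dnajc8, Hspa1a, Hsph1 or Dnajb1). With values not divided by length the ratio was 2.19, and with coding length it was 2.03. The ranges overlapped widely: 2 of the 8 constitutive genes, Hspa8 and Hsp90ab1, exceeded the highest inducible gene, Hsp90aa1, and 3 of the 6 inducible genes exceeded the constitutive median. All genes of both lists lay above the median of detected genes.

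Within the matched pairs of 1 family compared here, the order was the same. The constitutive Dnaja2 and the further inducible Dnaja1 were not among these pairs, and their order differs between value and level. By level the constitutive gene was the higher partner in Hspa8 against Hspa1a plus Hspa1b (7.59 times), Hsp90ab1 against Hsp90aa1 (2.44 times) and Hspa4 against Hsph1 (9.61 times). Each ratio stayed above 1 with transcript length, with coding length and without length division. Near-copies were found for Hspa8, Hspa1a, Hspa1b and Hsp90aa1, and these settings do not address reads shared with them. The effect of such reads on the ratios was not tested. Of the remaining core inducible genes, Hspb1 was at 2894 (level 102) and Dnajb1, the classical HSP40, at 1429 (level 16.2). The further inducible genes had a median level of 36.0. They ranged from Hspe1 at 101 to Dnajb4 at 3.89 and Hspa4l at 3.84, both next to the median level of detected genes. By value, without length division, Dnajb4 (940) and Hspa4l (1250) lay above 66.4% and 73.3% of detected genes.

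**Figure D3:**
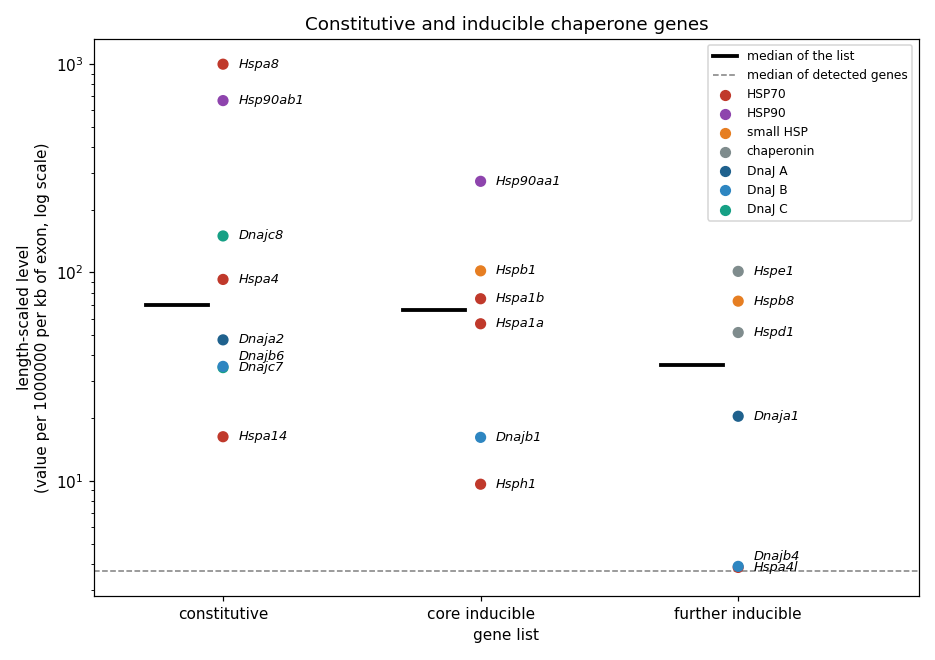
Length-scaled level (value per 1000000 per kilobase of exon, log axis) of the 8 constitutive, 6 core inducible and 6 further inducible genes in the 1 control library; each point is 1 gene coloured by family, black bars are list medians and the dashed line is the median of detected genes, 3.71. Hspa8 at 998 and Hsp90ab1 at 668 stand above all inducible genes, while the list medians, 70.0 and 65.8, lie side by side.

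The genes with Hspb symbols ranged from strongly expressed to barely detected. Hspb1 (HSP25 in mouse, which binds actin and intermediate filaments) had the highest level among them, 102, followed by Hspb8 (value 3916, level 72.8), a partner of BAG3 in selective autophagy, and Hspb6 (HSP20; value 3511, level 55.4), which is abundant in smooth muscle. The muscle-enriched Hspb7 was at 289 (level 3.79) and Hspb2 at 17 (level 0.739), and Hspb3 at 7 and the testis-enriched Hspb9 at 2 were under the detection minimum. Hspb2 lies head to head with Cryab, the small heat shock protein αB-crystallin, and shares 252 exon bases with it on the opposite strand. Cryab was at 6618 (level 162), above Hspb1 by level. Hspb11, which encodes the intraflagellar transport protein IFT25, was at 623 (level 10.9). Smooth muscle and mesenchymal markers were also detected in this culture, 6 of 6, against 67.2% of all genes in the library. Their levels ran from 6.74 (Lum) to 438 (Acta2). Their part in the values of Hspb6 and Hspb7 was not tested.

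The mitochondrial chaperonin genes Hspd1 (HSP60) and Hspe1 (HSP10) hold the matched stretch printed above in both of their promoter windows. Hspd1 was at 3752 (level 51.5) and Hspe1 at 4113 (level 101), a ratio of 1.96 by level. Exons of the pair overlap by 112 bases on opposite strands, which is 7.60% of the exon bases of Hspe1. The mitochondrial list of 9 genes was detected throughout, against 67.2% of all genes in the library, with a median level of 15.96. Among the J proteins that serve Hspa9, Dnajc19 (TIM14, of the import motor) was at 2396 (level 21.6), Dnajc15 at 2866 (level 15.96) and Dnaja3 (TID1) at 1376 (level 12.8). Dnajc11, a partner of the cristae-organising complex, was at 1754 (level 5.96), Dnajc30 at 218 (level 4.76) and Dnajc28 at 110 (level 1.12). Of the exon bases of Dnajc30, 26.2% overlap Bud23 on the opposite strand.

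The ER set was led by its main chaperones, with J proteins well below them. The 11 ER genes were all detected, against 67.2% of all genes in the library, with a median level of 18.3. Beside Hsp90b1 at 364 and Hspa5 at 185, Dnajb11 (ERdj3, which hands clients to BiP) had a level of 58.7 (value 5234). The levels of Dnajc10 (ERdj5, a disulphide reductase), Dnajc3 (P58IPK) and Dnajb9 (ERdj4) were 23.1, 20.2 and 15.6. The ER membrane proteins Dnajb12 and Dnajb14 were at 18.3 and 1.57, Dnajc1 (ERdj1) was at 6.54, and Dnajc25 was at 3.63. The 3 genes whose promoters matched the ER stress element, Hspa5, Hsp90b1 and Dnajc3, thus had levels from 20.2 to 364.

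**Figure D4:**
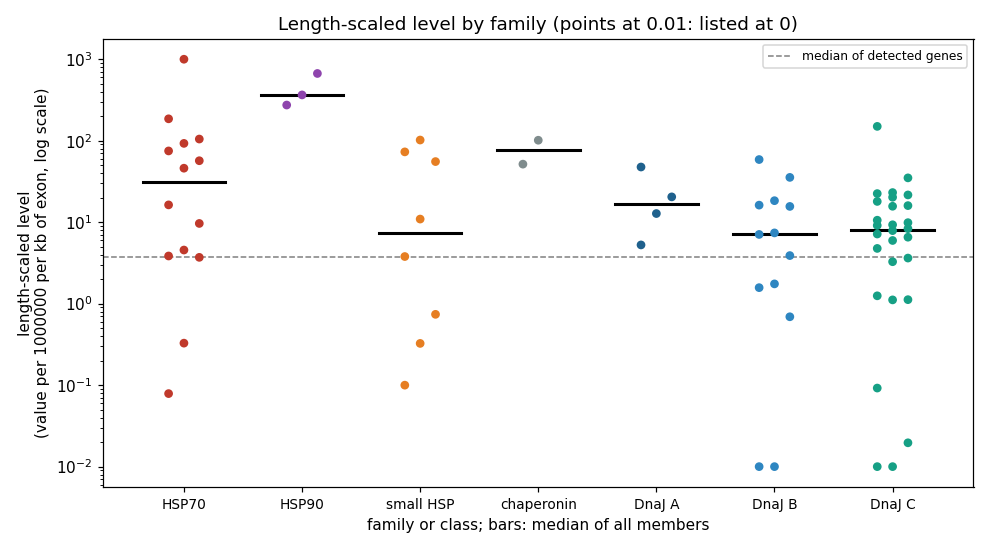
Length-scaled level (value per 1000000 per kilobase of exon, log axis) of all 72 genes by family or class; each point is 1 gene, black bars are medians over all members, points drawn at 0.01 are genes listed at 0, and the dashed line is the median of detected genes, 3.71. HSP90 has the highest median, 364, and each DnaJ class has a median above the dashed line.

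DnaJ genes were mostly lower than the HSP70 genes, whose median level over all 14 was 31.1. DnaJ class A keeps the full domain order of the bacterial protein, class B lacks the zinc-binding part, and class C shares only the J domain. Median levels over all members were 16.6 for the 4 class A genes, 7.07 for 13 class B genes and 8.10 for 28 class C genes. Their summed level was 664, so the HSP70 sum was 2.41 times as high, and without Hspa8 it was 0.902 times the DnaJ sum.

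In class A, the general cytosolic partners Dnaja2 and Dnaja1 were at 3896 (level 47.5) and 4859 (level 20.4), so their order differs between value and level, since the annotated exons of Dnaja1 span 8.63 kb and those of Dnaja2 2.98 kb. Dnaja4 was at 520 (level 5.26), and 44.1% of its exon bases overlap Wdr61 on the opposite strand, which was at 1533. In class B, Dnajb6, an inhibitor of polyglutamine aggregation, was at 5921 (level 35.4). Dnajb2, which has ubiquitin-interacting motifs, was at 828 (level 7.07), Dnajb4 at 940 and Dnajb5 at 286 (level 1.75).

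Class C was led by Dnajc8, a spliceosome-associated protein, at 10545 (level 150), or 36.4% of the class's summed level. Dnajc7, a TPR protein that binds both HSP70 and HSP90, followed at 4686 (level 34.95). Of those that work at the ribosome or nucleus, Dnajc2 (zuotin) was at 3108 (level 22.4), the histone chaperone Dnajc9 at 1177 (level 18.0), Dnajc17 at 565 (level 15.7) and Dnajc21, a ribosome biogenesis factor, at 1037 (level 7.87). Dnajc24 (DPH4, of diphthamide synthesis) was at 344 (level 9.11) and Dnajc4 at 337 (level 9.86). The others, Dnajc14, Dnajc18, Dnajc16, Dnajc12 and Dnajc27, had values of 1679, 1082, 587, 154 and 156. Of the exon bases of Dnajc14, 17.0% overlap Ormdl2 on the opposite strand, which was at 1008.

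Class C members of vesicle traffic, some of them linked to PD or synapses, differed sharply. Dnajc13 (RME-8, an endosomal protein proposed as a familial PD gene) was at 2740 (level 8.33), and Dnajc5 (cysteine string protein α, of synaptic vesicles) at 2025 (level 10.6). Dnajc6 (auxilin, the neuronal clathrin uncoating factor whose loss causes juvenile parkinsonism) was at 15 (level 0.0921). Gak, the ubiquitous auxilin, was at 3172 (level 17.9). Of 6 neuronal markers 5 were detected, against 67.2% of all genes in the library. Their levels ran from 0.125 (Rbfox3) to 24.6 (Stmn2), and Slc17a6 was listed at 0. Of those 5, only Stmn2 lay above the median of detected genes. The part of neurons in the values of Dnajc5 and Dnajc6 was not tested.

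Of 9 testis-enriched members, 5 were under the detection minimum and 4 were detected (44.4%), against 67.2% of all genes in the library. Dnajb7, Dnajb8, Dnajc5b and Dnajc5g were listed at 0 and Hspb9 was at 2, while Dnajb3 was just detected at 20. Outside that list, Dnajc22 at 1 was the only other DnaJ gene under the minimum. The higher testis-enriched genes were Hspa2 and Hspa1l, given above, and Dnajb13 at 556 (level 7.38). Dnajb13 encodes a radial spoke protein of sperm flagella and motile cilia. Markers of motile cilia were detected in this culture, 4 of 4, with levels from 0.709 (Tmem212) to 64.9 (Cfap126). Of the exon bases of Dnajb13, 11.2% overlap Ucp2 on the opposite strand, which was at 34166. The part of either in the Dnajb13 value was not tested.

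Near-copies in the genome touch several of the highest members. Transcripts of 6 other annotated genes, 5 of them processed pseudogenes, matched the Hspa8 transcript at 95% identity or more over at least 20% of its length, and none of them had a row of its own. For Dnajb6 there were 5, for Dnaja1 3 and for Hsp90aa1 3, also without rows. Among other members, Hspb1 had 2, and Hspd1, Hspe1 and Dnajc17 had 1 each, again without rows. Where reads that fit several places were placed is not stated, and their effect on these values was not tested.

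The heat shock factors and the partners of HSP70 and HSP90 were taken from lists of genes outside the symbol rule. Hsf1, the master regulator of the heat shock response, was at 639 (level 3.26). The factors Hsf2 and Hsf4 had levels of 1.97 and 2.83, so all 3 lay below the median level of detected genes, 3.71. By value, without length division, Hsf1 and Hsf2 (523) lay above the median of detected genes, 469, and Hsf4 (137) below it. Of 10 nucleotide exchange factors, 10 were detected, against 67.2% of all genes in the library, with a median level of 14.6. Bag1 had the highest value at 11867 (level 319), and Bag4 the lowest at 200 (level 1.03). Hyou1 (GRP170 of the ER) was at 4443 (level 22.3) and Bag3, the inducible partner of Hspb8, at 3482 (level 49.3). Of 16 HSP90 cochaperones, 16 were detected, against the same 67.2% of all genes, with a median level of 15.4. Cdc37, which delivers kinases, was at 8812 (level 39.0), St13 (HIP) at 7184 (level 25.3), and Stip1 (HOP, the bridge between HSP70 and HSP90) at 4706 (level 81.0), and the lowest value was that of Chordc1 at 813 (level 3.93). Of the other chaperones, Serpinh1 (HSP47, for collagen) was at 6399, Trap1 (the mitochondrial HSP90) at 3140, the lowest detected, Clpx, at 1147, and Cryaa was listed at 0. Of the other J proteins, Sec63, Gak and Hscb were at 3985, 3172 and 1047.

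**Figure D5:**
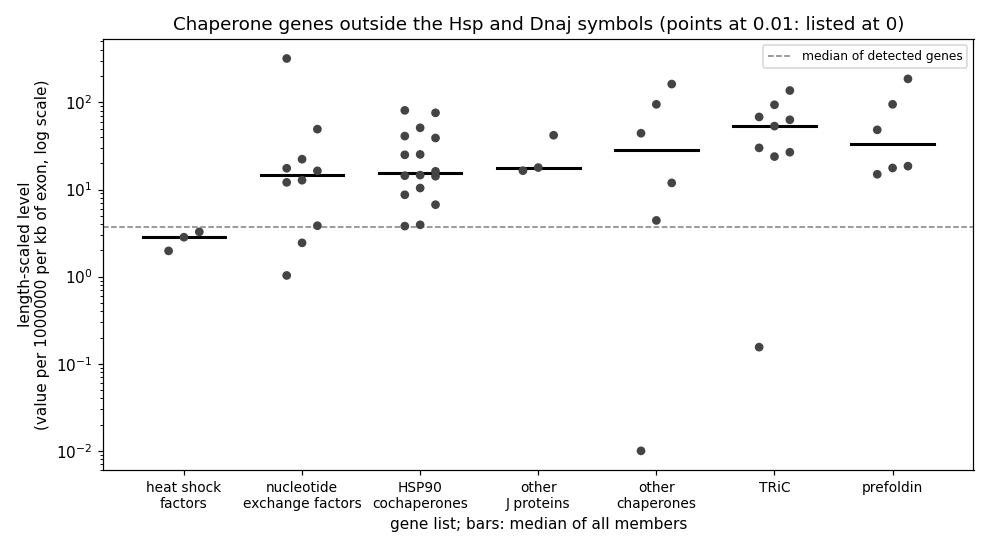
Length-scaled level (value per 1000000 per kilobase of exon, log axis) of chaperone genes outside the Hsp and Dnaj symbols in the 1 control library; each point is 1 gene, black bars are medians over all members of a list, a point at 0.01 is a gene listed at 0, and the dashed line is the median of detected genes, 3.71. The 3 heat shock factors lie below that line and all 16 HSP90 cochaperones above it.

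The labelled cell type was checked against markers. Levels of 6 of 6 astrocyte markers ran from 5.15 (Slc1a2) to 148 (Gfap), and those of 6 of 6 microglial markers from 15.4 (Tmem119) to 1138 (C1qa). These, with the mesenchymal and ciliary markers above, describe a mixed culture, and no member can be assigned to a cell type from this library. Of the 5 detected neuronal markers, 1 lay above the median of detected genes.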

How the data were processed

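The transcriptome of 1 control culture was measured by RNA-seq, from Trizol-extracted total RNA and a SMARTer mRNA library. Per the study's methods, reads under quality 20 were trimmed, mapped to GRCm38/mm10 with STAR and counted on RefSeq exons with HTSeq-count, while the submitters' processing notes name TopHat and edgeR. The authors made the deposited score values by counting reads and normalising them to whole-number read counts, by a scaling that is not given in the sources used here. Strand and multi-mapping settings are likewise not given, so no interval or detection floor was computed, and the sum of 27569507 stands in for depth.

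Detection was set at 10. Levels were values per 1000000 of the sum per kilobase of the exon union in GENCODE M21 (GRCm38), which is not the annotation counted on. Of the symbols, 22197 matched directly, 657 through older symbols and 384 not at all. All 72 members matched. Symbols in more than 1 row got no length. Near-copies were found with BLAST 2.17.0 among GENCODE transcripts (at least 95% identity over 100 bases). Motifs were counted in RefSeq promoter windows (GRCm38.p6). The motif search was run on random sequence with the same patterns planted, which checks the code only and not false or missed elements. Members could all be named. From the partner lists, the 3 highest, the lowest, undetected genes and Hsf1 were named by rule. Clpx, Cct4, Cct6a, Ucp2, Wdr61, Bud23, Ormdl2, Gm20481, the Snord14 genes and single markers were named after values were seen. The members and lists were chosen with earlier results of these data known. Protein sequence features, also planned, were not analysed here. From the list of other J proteins, 1 gene is not reported here. Python 3.11.15, numpy 2.4.6, pandas 2.3.3 and matplotlib 3.10.9 were used.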

Additional observations from a re-analysis of the deposited data

How the results depend on the processing

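A ratio or share was taken as moved when an alternative changed it by more than 1.5 times, since no replicate spread exists. Of 52 alternatives, 40 gave a value within that range and on the same side of 1. The ratio of the median of members to that of all genes was 3.69 among genes at 10 or more and 11.03 over all genes, which follows from the many genes at or near 0. The ratio of constitutive to inducible medians, 1.06, was 2.03 with coding length, 2.19 without length division, and 1.91 and 1.89 as the mean of log2 values with pseudocounts of 0.1 and 1, and the cause was not tested. When each gene was left out in turn it ran from 0.722 to 1.41, which follows from the small number of genes in each list. Ratios within the 3 matched pairs and the medians by compartment and DnaJ class moved by less than 1.5 times. No paired analysis was possible because there is 1 library. These alternatives do not touch the missing replicate, the unknown scaling or the placement of reads shared by near-copies.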

Other observations

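Cytosolic proteins are also folded by TRiC, a ring of 8 different subunits, which receives clients from prefoldin. Cct2 had the highest value, 9648 (level 137), followed by Tcp1 at 9439 (level 68.1) and Cct5 at 7157 (level 93.9), and the lowest of the ubiquitous subunits was Cct4 at 2766 (level 23.9). Cct6b, the testis paralogue of Cct6a, was at 8, under the detection minimum, while Cct6a was at 6300 (level 63.1). The 9 genes, Cct6b included, had a median level of 53.4, beside 51.5 for the 27 Hsp genes and 7.87 for the 45 Dnaj genes. All 6 prefoldin genes were detected, against 67.2% of all genes in the library, with a median level of 33.5. Pfdn5 was at 7156 (level 186), Pfdn1 at 2906 (level 95.05), Pfdn2 at 2585 (level 48.4), and Pfdn6 had the lowest value, 581 (level 17.7).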
